A study of Mus musculus with 3 samples.

Results

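The zinc finger protein genes described here were the mouse protein-coding genes named Zfp600 to Zfp999 in the GRCm38.p6 gene table, the symbol being Zfp and 3 digits. There were 171 such genes among 21887 protein-coding genes on the chromosomes, and the 196 other numbered Zfp genes were used for comparison. A peak belonged to a gene when it overlapped the gene or 5 kb on either side of it, and each peak was counted once in every sum over genes. The members were chosen by name, not by any measured value, though earlier results of these data were known. They had a median length of 18.2 kb, with a range of 2.52 to 479 kb, against a median of 17.2 kb over all protein-coding genes.

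C2H2 zinc finger proteins bind DNA through repeated fingers, and many of those that vertebrate genomes hold in tandem arrays carry a KRAB domain. KRAB zinc finger proteins are known to recruit TRIM28 and the histone methyltransferase SETDB1, which silence retroelements and other targets through H3K9 methylation. ATRX is a chromatin remodeller that deposits histone variant H3.3 together with DAXX, and in human cells it is known to bind the 3′ exons of zinc finger genes. MICAL1 is a flavin monooxygenase that oxidises actin.

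ATRX occupancy was measured by ChIP-seq in primary neurons from C57BL6/J mouse embryos of E15.5 to E17.5, which received lentivirus on day 5 in vitro and were profiled on day 14. Neurons with MICAL1-FL were compared with control neurons that carried mCherry, with 1 ChIP library of each and input DNA as the background of the study. The one input sample named in the labels is of control neurons, and which input served the MICAL1-FL list is not given. The comparison asks whether ATRX peaks at these genes differ between these neurons. With 1 library per condition no difference had a replicate check and no test was possible, so 95% intervals are exact and cover counting error only.

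The MICAL1-FL list held 105498 peaks on the chromosomes and the control list held 112008, a ratio of 0.942 (95% interval 0.934 to 0.950). The peak identifiers of the first list begin with TBC_M2, a name that the sample labels do not contain, so every MICAL1-FL value rests on the label of that list. Fold over background, p and q of a peak are the authors' own values, used here for description and for ranks inside 1 list. The median fold was 2.29 in both lists, and a q at or under 0.05 was reached by 0.312% of MICAL1-FL peaks and 0.364% of control peaks. At the members no MICAL1-FL peak and 2 of 352 control peaks reached it, so nearly all member peaks missed it. Read from fold and p, the members' peaks had a median of 6 overlapping fragments in MICAL1-FL and 5 in control neurons, and at most 13 and 15. How many reads each library held is not stated in the labels or lists. Peak lists carry no expression, so the cell type and the MICAL1-FL transgene could not be checked in them.

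The members that had a summit inside the promoter window are shown first, since they give the sequence under the signal. A summit is the highest point of a peak. RefSeq promoters of GRCm38.p6 were available for 148 members, as windows from 250 bases before to 50 after the start. A MICAL1-FL summit lay in 2 of 178 such windows of members (1.12%) and a control summit in 5 (2.81%), against 3.52 and 3.40% of the windows of all protein-coding genes. Of the 6 members with such a summit, 4 are shown by the fold of the peak, Zfp709 and Zfp957 with MICAL1-FL summits and Zfp768 and Zfp691 with control summits. Zfp951, whose peak had the same fold as that of Zfp691, and Zfp946 had control summits too. Each is given 5′ to 3′ on its own strand, with 250 bases before the start and the first 30 after it, and the 21 capitals are centred on the summit. The Zfp709 window is chr8:71881818-71882097 on the plus strand, and the minus strand windows are chr14:79247338-79247617 for Zfp957, chr7:127345285-127345564 for Zfp768 and chr4:119173827-119174106 for Zfp691.
Zfp709: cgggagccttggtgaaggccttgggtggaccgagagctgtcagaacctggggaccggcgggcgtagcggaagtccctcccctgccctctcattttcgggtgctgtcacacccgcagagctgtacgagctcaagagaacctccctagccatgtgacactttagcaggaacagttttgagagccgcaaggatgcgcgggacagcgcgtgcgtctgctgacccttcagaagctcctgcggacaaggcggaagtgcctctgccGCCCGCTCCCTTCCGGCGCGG
Zfp957: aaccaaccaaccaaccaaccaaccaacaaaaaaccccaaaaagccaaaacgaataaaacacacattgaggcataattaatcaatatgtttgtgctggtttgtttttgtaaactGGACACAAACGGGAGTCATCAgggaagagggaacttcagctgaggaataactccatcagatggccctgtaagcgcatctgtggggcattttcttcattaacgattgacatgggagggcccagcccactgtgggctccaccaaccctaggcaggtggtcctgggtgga
Zfp768: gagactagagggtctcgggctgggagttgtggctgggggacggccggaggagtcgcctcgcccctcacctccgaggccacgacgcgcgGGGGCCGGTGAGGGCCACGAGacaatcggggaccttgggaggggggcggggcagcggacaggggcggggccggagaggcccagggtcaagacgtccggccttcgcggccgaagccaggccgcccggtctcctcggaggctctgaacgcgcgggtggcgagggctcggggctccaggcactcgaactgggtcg
Zfp691: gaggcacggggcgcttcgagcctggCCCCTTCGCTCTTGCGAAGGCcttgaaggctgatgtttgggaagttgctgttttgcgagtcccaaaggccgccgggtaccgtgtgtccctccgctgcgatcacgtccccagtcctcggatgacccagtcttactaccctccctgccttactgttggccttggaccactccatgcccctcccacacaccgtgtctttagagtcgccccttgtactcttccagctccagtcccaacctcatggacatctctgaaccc

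The Zfp709 peak had a fold of 3.43 from 9 fragments in MICAL1-FL neurons, with its summit 19 bases after the start, and no control summit lay within 1 kb of either end of the gene. The Zfp957 peak in MICAL1-FL neurons had a fold of 2.69 from 7 fragments and its summit 127 bases before the start. In control neurons the Zfp768 peak had a fold of 3.43 from 8 fragments with its summit 152 bases before the start, and the Zfp691 peak a fold of 2.29 from 5 fragments with its summit 215 bases before it. None of the 4 windows held summits of both lists. Runs of G that can fold into G-quadruplexes are a known setting of ATRX binding, so windows were searched on both strands for 4 runs of GGG or more with 1 to 7 bases between them. Such a stretch was present in 12.9% of the members' promoters, 25.8% of those of other Zfp genes and 22.0% of all. Among all promoters with a summit the share was 37.1%, and these promoters also had medians of 23 CpG and 65.7% GC. Of the 7 member windows with a summit, 1 held such a stretch (14.3%). Of the 4 printed windows the Zfp768 one held it. Members' promoters had a median of 11 CpG and 53.7% GC, against 13 CpG and 56.3% over all protein-coding promoters.

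About the same share of members as of other genes held an ATRX peak. A MICAL1-FL peak was present at 100 of 171 members (58.5%, 50.7 to 66.0%) and a control peak at 119 (69.6%, 62.1 to 76.4%), against 61.2 and 64.0% of all protein-coding genes. Peaks of both lists were present at 85 members (49.7%), against 48.2% of all genes. A further 15 members (8.77%) had MICAL1-FL peaks alone, 34 (19.9%) had control peaks alone and 37 (21.6%) had none, against 13.0, 15.8 and 22.9% of all genes. Other numbered Zfp genes gave 61.2% in MICAL1-FL and 69.4% in control neurons. The intervals of the members include the MICAL1-FL share of all genes and that of the control list, so no difference of the members from other genes was detectable at this number of genes.

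**Figure D1:**
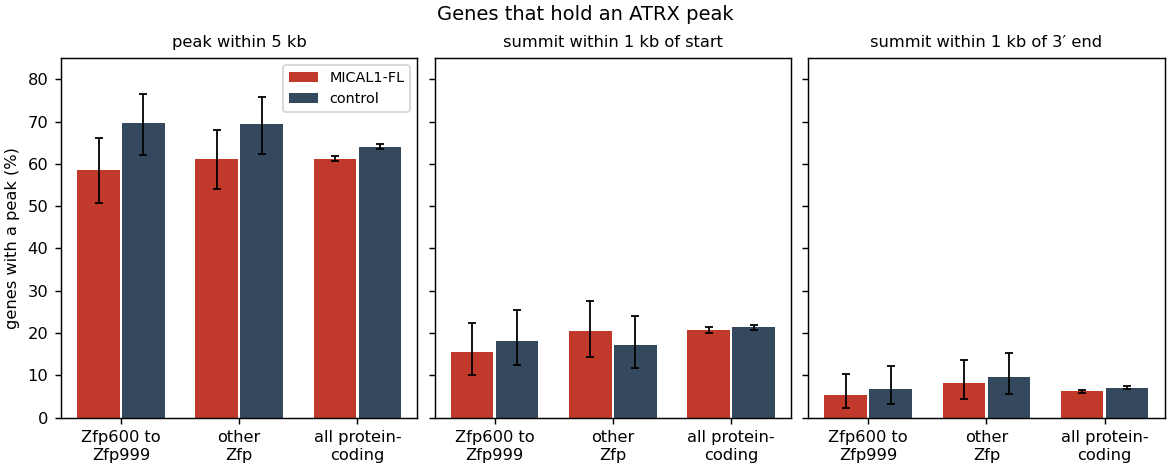
Share of genes with an ATRX peak in percent, for the 171 Zfp600 to Zfp999 genes, 196 other Zfp genes and all protein-coding genes, in MICAL1-FL (red) and control neurons (blue). The left panel counts peaks in the gene or 5 kb around it, the others summits within 1 kb of the start or the 3′ end. Bars are shares, and lines are 95% exact intervals that cover counting error only. The member shares lie near those of all genes in every panel, with 58.5 and 69.6% in the left one.

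Longer members held peaks more often. Among the 57 members over 25.2 kb, 84.2% had a MICAL1-FL peak and 84.2% a control peak, against 84.8 and 86.0% of all genes of that length. In the middle 57 the shares were 47.4% in MICAL1-FL and 64.9% in control neurons, against 59.5 and 64.2% of all genes. In the shortest 57 they were 43.9 and 59.6%, against 41.0 and 44.5%, but in that class members were longer than other genes, with medians of 10.6 and 4.74 kb. Across the 171 members, Spearman's correlation of length with peak number was 0.527 in MICAL1-FL and 0.428 in control neurons. It is given as a description, since genes are not independent replicates and a longer span holds more bases. Over all protein-coding genes it was 0.614 in MICAL1-FL and 0.612 in control neurons.

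Summed over the 6.89 Mb that the members cover, there were 309 MICAL1-FL peaks (44.8 per Mb) and 352 control peaks (51.1 per Mb). The ratio of 0.878 (0.751 to 1.03) lay beside 0.880 (0.760 to 1.02) for other Zfp genes and 0.927 (0.916 to 0.938) for all protein-coding genes. The 15 members of 1 cluster on chromosome 4 had 103 MICAL1-FL and 52 control peaks, a ratio of 1.98 (1.41 to 2.82). The other 156 members had 206 MICAL1-FL and 300 control peaks, a ratio of 0.687 (0.572 to 0.823). Their interval lay below that of all protein-coding genes. The chromosome 4 cluster was singled out after its values were seen, as 1 of 17 clusters. Leaving it out by itself lowers the ratio of the other members, and no cluster was left out of the genes they are compared with.

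Clusters were runs of at least 3 members with gaps of at most 1 Mb. There were 17, holding 109 members, and 62 members lay outside. They are named by chromosome and, where there were several, by letter in the order of position. In the 94 members of clusters other than the one on chromosome 4 there were 79 MICAL1-FL peaks (28.8 per Mb) and 122 control peaks (44.5 per Mb), a ratio of 0.648 (0.482 to 0.866). Outside clusters the 62 members had 127 MICAL1-FL peaks (43.8 per Mb) and 178 control peaks (61.3 per Mb), a ratio of 0.713 (0.564 to 0.901). Both groups had fewer peaks in MICAL1-FL than in control neurons, by more than the whole lists differed.

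**Figure D2:**
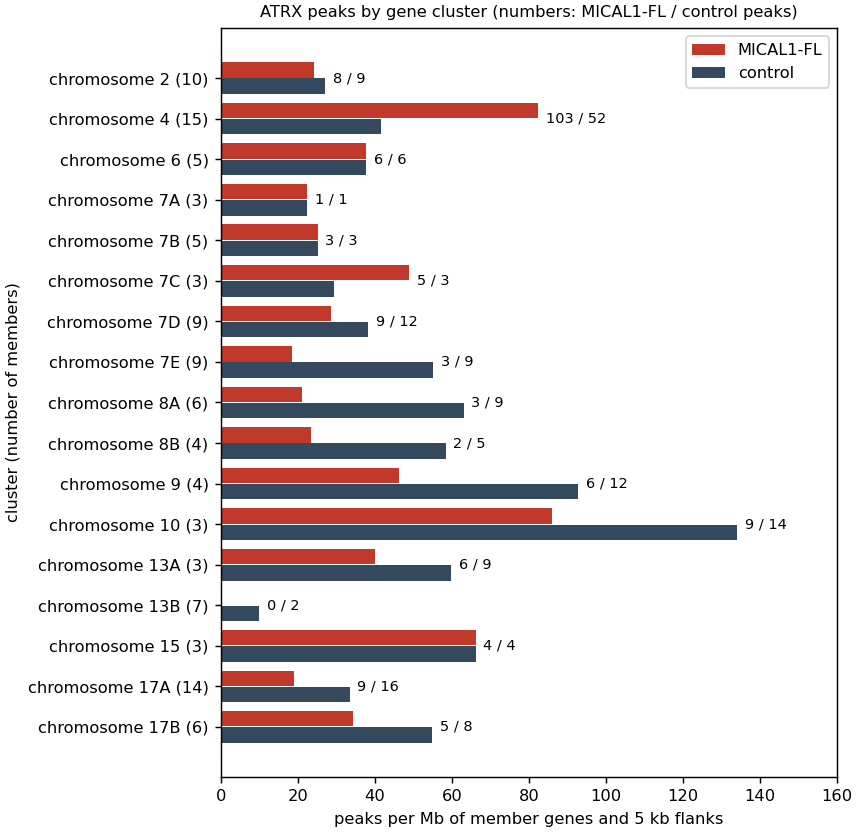
ATRX peaks per Mb of member genes and their 5 kb flanks in the 17 clusters, in MICAL1-FL (red) and control neurons (blue), with the number of members in brackets and peak numbers at the bar ends. Each bar is 1 library, with no error bar. The chromosome 4 cluster reached 82.4 per Mb in MICAL1-FL and 41.6 per Mb in control neurons, and the chromosome 10 cluster had the highest control value, 134 per Mb.

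The chromosome 4 cluster is one of the arrays known to have expanded in the mouse lineage, with copies of high similarity. Its 15 members cover 1.25 Mb. Of them 12 had more peaks in MICAL1-FL than in control neurons, 1 had fewer, and Zfp990 and Zfp987 had none in either list. Over all protein-coding genes 28.7% had more MICAL1-FL peaks and 35.1% fewer. Among those over 25.2 kb, as most members of this cluster are, the shares were 35.8 and 44.0%. The 12 are not independent, since some share peaks. The 1 that went the other way, Zfp933, had 3 MICAL1-FL and 6 control peaks and lies at the high end of the array. The span of Zfp978, 267 kb long, had 43 MICAL1-FL and 21 control peaks, a ratio of 2.05 (1.19 to 3.63) whose interval excludes equal numbers. It contains Zfp991 (9 and 4) and Zfp988 (3 and 2), which share their peaks with it. Zfp993, with 479 kb the longest member, had 17 MICAL1-FL and 9 control peaks. Smaller members had the same order, with 7 MICAL1-FL and 2 control peaks at Zfp992, 5 and 1 at Zfp979, 4 and 1 at Zfp600 and at Zfp981, and 9 and 5 at Zfp982. Of the 4 MICAL1-FL peaks of Zfp981, 3 are also among the 17 of Zfp993. Zfp984 had 9 and 6, while Zfp985 and Zfp980 had 3 and 2 MICAL1-FL peaks and no control peak. The ratio ranged from 1.92 to 2.17 when each member was left out in turn. Peaks shared with another member were kept, so leaving out Zfp978 still left 72 MICAL1-FL and 37 control peaks. Leaving out Zfp990, Zfp987, Zfp991 or Zfp988 removed no peak. The whole span of Zfp978 was not left out in any run.

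**Figure D3:**
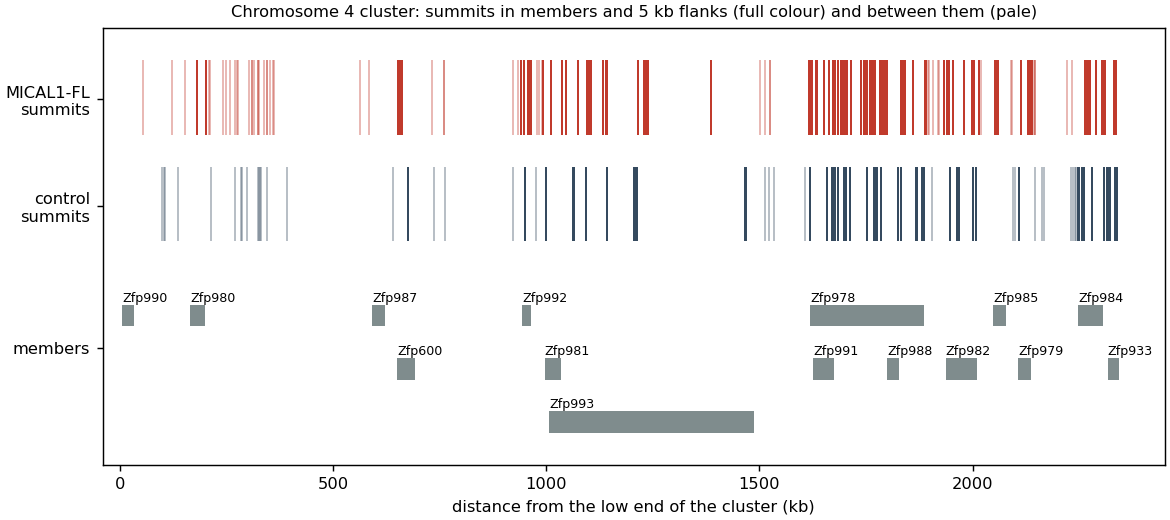
Summits along the chromosome 4 cluster by distance from its low end in kb, in MICAL1-FL (red) and control neurons (blue), with member genes in grey below. Full colour marks summits of peaks in members and their 5 kb flanks, and pale colour those between them. Summits of the 103 MICAL1-FL member peaks are denser than those of the 52 control ones along most of the array, and the densest stretch lies over Zfp978.

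The stretches between members in the same interval had 52 MICAL1-FL and 34 control peaks, a ratio of 1.53 (0.974 to 2.43) whose interval includes equal numbers. In the whole 2.35 Mb interval there were 155 MICAL1-FL peaks, from chr4:145560506 to 147842494, and 86 control peaks, from chr4:145605111 to 147844578, a ratio of 1.80 (1.38 to 2.37). In the 1 Mb on either side of it there were 87 MICAL1-FL and 86 control peaks, a ratio of 1.01 (0.742 to 1.38). Set against the genome, the window chr4:146000001-148000000 had 135 MICAL1-FL and 77 control peaks, a ratio of 1.75. By this ratio it ranked number 4 of 1201 windows of 2 Mb with at least 50 peaks, of which 14 (1.17%) had at least 1.5 times as many MICAL1-FL peaks and 44 (3.66%) at least 1.5 times as many control peaks.

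The cluster's peaks covered 45193 bp in MICAL1-FL and 18312 bp in control neurons, and had a median of 6 overlapping fragments in both lists. Other medians were higher in MICAL1-FL than in control neurons. These were fold (2.40 and 2.13), −log10 p (2.44 and 2.13) and width (366 and 320.5 bp). The background under the cluster's peaks stood apart from the other members in both lists. It was at the list's lowest value, 1.62 fragments, for 37.9% of the cluster's MICAL1-FL peaks and 21.2% of its control peaks, against 62.1 and 65.3% at the other members. Among peaks at the lowest background the cluster had 39 MICAL1-FL and 11 control peaks, a ratio of 3.55 (1.78 to 7.68). Above it there were 64 and 41, a ratio of 1.56 (1.04 to 2.37). How uniquely reads map to the near-identical copies was not measured, and its part in the result was not tested.

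The chromosome 2 cluster, 10 members that include another mouse-expanded array, had 8 MICAL1-FL peaks (24.0 per Mb) and 9 control peaks (27.0 per Mb). Most of these lay at Zfp831, with 6 and 5, and 7 of the 10 members had none. The first chromosome 17 cluster (17A), with 14 members, had 9 MICAL1-FL and 16 control peaks, with a peak at 5 members in MICAL1-FL and at 11 in control neurons. The 7 members of cluster 13B had no MICAL1-FL peak and 2 control peaks.

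Several other arrays had fewer peaks in MICAL1-FL neurons, each on few peaks. All 4 members of the chromosome 9 cluster had more control peaks, with 6 MICAL1-FL and 12 control peaks in sum. That cluster holds Zfp809, known to silence murine leukaemia provirus in mouse embryonic stem cells, with 1 MICAL1-FL and 2 control peaks. Clusters 7E and 8A each had 3 MICAL1-FL and 9 control peaks, and the chromosome 10 cluster had 9 and 14 at the highest density of any cluster, 86.0 per Mb in MICAL1-FL and 134 per Mb in control neurons. No interval of these single clusters excluded equal numbers. For chromosome 9, for example, the ratio lay between 0.154 and 1.44.

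Equal numbers were found in clusters 6, 7A, 7B and 15, with 6, 1, 3 and 4 peaks in each list. The chromosome 6 cluster includes Zfp746 (PARIS), a repressor known as a substrate of the ubiquitin ligase Parkin, with 1 peak in each list. Cluster 7C was the only one besides chromosome 4 with more MICAL1-FL than control peaks, 5 against 3. Clusters 7D, 8B, 13A and 17B had 9, 2, 6 and 5 MICAL1-FL peaks, against 12, 5, 9 and 8 control peaks.

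Gene by gene, 41 members (24.0%) had more MICAL1-FL than control peaks, 71 (41.5%) had fewer and 22 (12.9%) had the same number above 0, against 28.7, 35.1 and 13.2% of all protein-coding genes. Of the 17 members with at least 10 peaks over both lists, 3 had at least 2 times as many MICAL1-FL peaks, against 7.57% of the 2602 protein-coding genes with that many peaks. These were Zfp978 and Zfp991, which share peaks, and Zfp608. Another 3 had at least 2 times as many control peaks, against 11.9% of such genes. These were Zfp697 with 3 MICAL1-FL and 10 control peaks, Zfp951 with 3 and 8, and Zfp957 with 3 and 7.

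**Figure D4:**
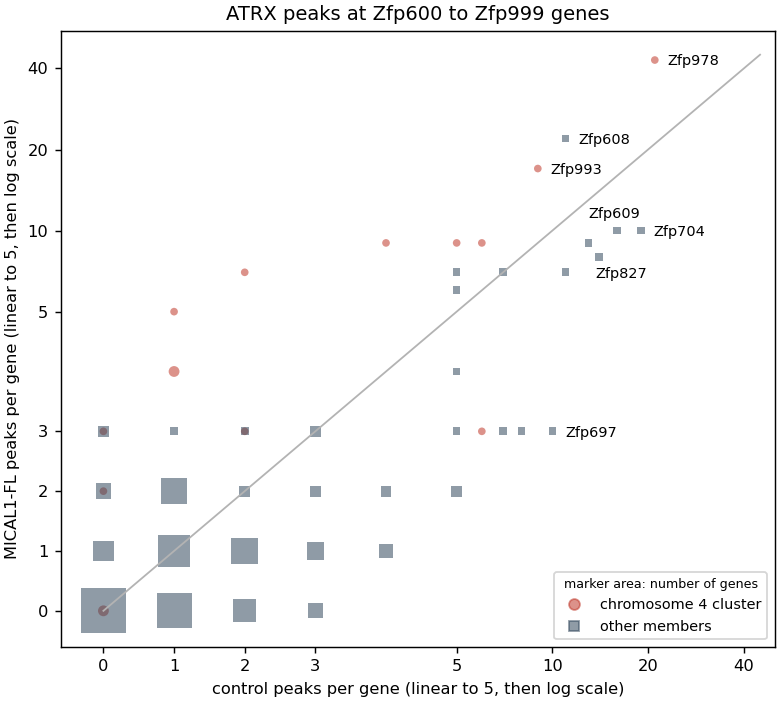
Number of peaks at each of the 171 members, MICAL1-FL (vertical) against control neurons (horizontal), on axes that are linear to 5 and logarithmic above. Marker area gives the number of genes, circles are the chromosome 4 cluster and squares all other members, and the grey line marks equal numbers. Zfp978 stands at 43 and 21 peaks and Zfp608 at 22 and 11, while Zfp704, Zfp609, Zfp827 and Zfp697 lie below the line.

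Outside the clusters the most peaks lay at long genes. Zfp608, on chromosome 18, a paralog of Zfp609, had 22 MICAL1-FL and 11 control peaks, a ratio of 2.00 (0.930 to 4.57). Its window chr18:54000001-56000000 had 198 MICAL1-FL and 128 control peaks, a ratio of 1.55 that ranked number 10 of 1201. Zfp609, known to bind the cohesin loader Nipbl and to act in the migration of cortical neurons, had 10 MICAL1-FL and 16 control peaks. The paralogs thus had opposite orders, and the interval of Zfp609 (ratio 0.625, 0.254 to 1.46) includes equal numbers, as does that of Zfp608.

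Zfp704 had 10 MICAL1-FL and 19 control peaks, the most control peaks of any member outside chromosome 4. Zfp827, whose human counterpart recruits the NuRD complex to telomeres that are kept by recombination, had 8 and 14. Zfp618, known to bind UHRF2 and 5-hydroxymethylcytosine, had 9 and 13, and Zfp800 had 7 and 11. All 4 are over 100 kb long and had fewer peaks in MICAL1-FL neurons, with intervals of the ratio that include equal numbers.

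Peak numbers at some further members with known roles were as follows. Zfp638, whose human counterpart acts with the HUSH complex to silence unintegrated retroviral DNA, had 1 MICAL1-FL and 4 control peaks over 119.8 kb. Zfp932, a repressor of endogenous retroviruses in mouse, also had 1 and 4. Zfp644, whose human counterpart partners with the methyltransferases G9a and GLP, had 3 in each list, and the X-linked Zfp711, tied to intellectual disability in humans, had 1 in each. These genes were chosen for their roles, after their values were seen.

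Of 12 genes for ATRX, MICAL1 and proteins that act with ATRX or with KRAB zinc finger proteins, 9 had a MICAL1-FL peak and 5 a control peak, where 61.2 and 64.0% of all protein-coding genes had one. Setdb1 and H3f3a, one of the genes of histone H3.3, each had 2 MICAL1-FL peaks and no control peak. Daxx, and Cbx5, which codes for heterochromatin protein HP1 alpha, each had 1 MICAL1-FL peak and no control peak. Atrx, Cbx1, Cbx3 and Suv39h2 had 1 in each list, Mical1 had 1 MICAL1-FL and 2 control peaks, and Trim28, H3f3b and Suv39h1 had none.

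The members' shares in each list lay near those of all genes at either end and at the 3′ end, and below them at starts. A MICAL1-FL summit lay within 1 kb of an end at 40 members (23.4%, 17.3 to 30.5%) and a control summit at 46 (26.9%, 20.4 to 34.2%), against 25.3 and 26.6% of all genes. Both lists had one at 14 members (8.19%), against 10.3% of all genes, while 26 (15.2%) had one in MICAL1-FL alone and 32 (18.7%) in control alone, against 15.0 and 16.3% of all genes. Members with no known strand are left out of the start and 3′ values, among them Zfp978, Zfp608, Zfp704, Zfp609 and Zfp703. Strand was known for 148 members. At their starts, MICAL1-FL summits lay at 23 (interval 10.1 to 22.4%) and control summits at 27 (18.2%, 12.4 to 25.4%), against 20.7 and 21.3% of all genes with a known strand. Summits of both lists lay at the starts of 4 members (2.70%, 0.741 to 6.78%), against 7.61% of all such genes, a value above the interval. Among other numbered Zfp genes with a known strand it was 8 of 157 (5.10%), a value inside the interval. At the members' 3′ ends, MICAL1-FL summits lay at 8 members (5.41%) and control summits at 10 (6.76%), against 6.17 and 7.04%.

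At the 3′ end, where ATRX is known to bind in human cells, the share of members with a summit within 1 kb was not above that of all genes in either list. In the last kb before the 3′ end there were 5 MICAL1-FL summits (33.8 per Mb) and 7 control summits (47.3 per Mb), against 33.8 and 38.2 per Mb over all genes. Over the final stretch, 1 of 10 equal parts of the gene, the members had 38.2 per Mb in MICAL1-FL and 59.7 per Mb in control neurons, against 37.7 and 39.1 per Mb. Without the chromosome 4 cluster these were 45.2 per Mb in MICAL1-FL and 57.3 per Mb in control neurons, from 15 and 19 summits. These 3′ densities rest on few summits and have no intervals. On this gene side of the 3′ end they were above those of all genes in control neurons, and near or above them in MICAL1-FL neurons. In the first kb after the 3′ end there were 3 summits in each list (20.3 per Mb), below the 29.7 and 34.4 per Mb of all genes. Part 4 of the 10 had 57.3 per Mb in control neurons, so a high value was not limited to the final part. Other numbered Zfp genes had 50.8 per Mb in MICAL1-FL and 38.7 per Mb in control neurons in the final part. Summits gathered at the other end. In the first kb after the start there were 20 MICAL1-FL summits (135 per Mb) and 21 control summits (142 per Mb), against 148 and 159 per Mb over all genes. In the kb before the start the members had 3 MICAL1-FL summits (20.3 per Mb) and 7 control summits (47.3 per Mb), against 72.5 and 70.5 per Mb.

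**Figure D5:**
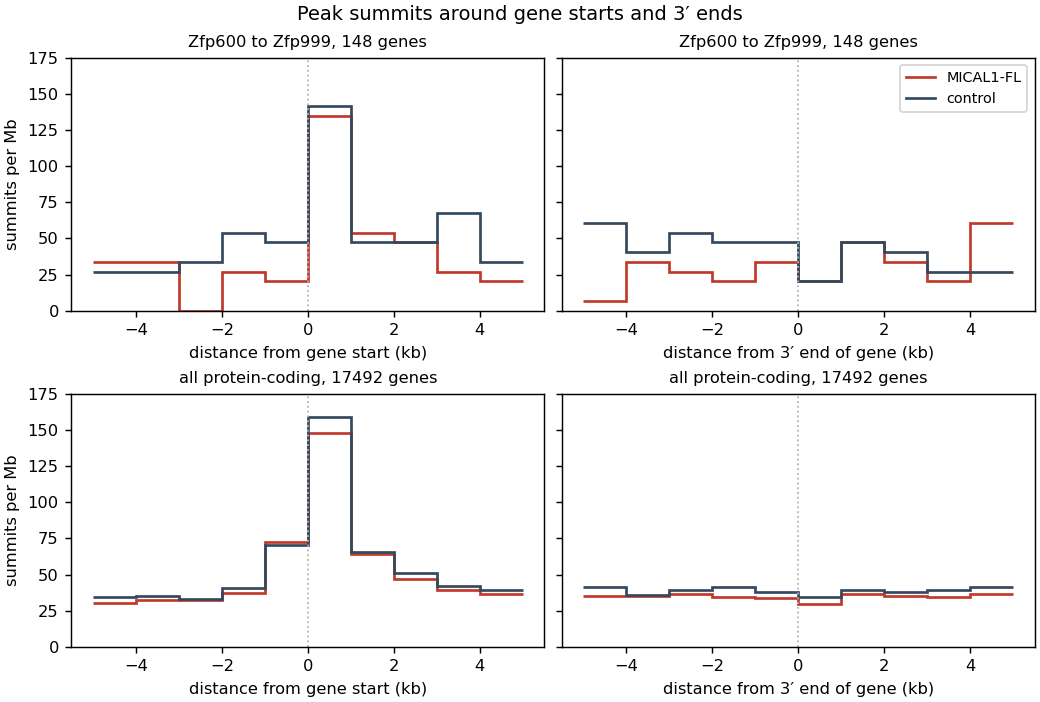
Summits per Mb in steps of 1 kb around gene starts (left) and 3′ ends (right), for 148 members (top) and 17492 protein-coding genes (bottom) with a known strand, in MICAL1-FL (red) and control neurons (blue). Negative distances lie before the start or the 3′ end. Members had 135 and 142 summits per Mb in the first kb after the start, and around their 3′ ends no step rose to that level.

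Where just 1 of the lists had an end peak, the highest folds lay at starts. Zfp942 and Zfp943, neighbours in cluster 17A, shared 1 peak at chr17:21961962-21963105 with a fold of 3.82 from 9 fragments, whose summit was 352 bases from the start of Zfp942 and 296 from that of Zfp943, and control neurons had no summit within 1 kb there. Zfp763 in cluster 17B had a peak with a fold of 3.43 from 8 fragments, 274 bases from its start. In control neurons, Zfp606 had the highest, with a fold of 3.86 from 10 fragments 146 bases from its start, and Zfp954, Zfp760 and Zfp768 each had a fold of 3.43. None of these 4 had a MICAL1-FL summit within 1 kb of an end.

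At 3′ ends, Zfp781 was the 1 member of 148 with summits of both lists (0.676%), against 0.829% of all genes. Its 3′ peaks, at chr10:81902154-81903076 in MICAL1-FL and chr10:81902450-81902727 in control neurons, overlapped and had folds of 3.06 and 2.67. Zfp810 had a MICAL1-FL 3′ peak with a fold of 3.06 and Zfp873 a control one with a fold of 3.05, each from 7 fragments. Zfp786 and Zfp949 had a MICAL1-FL summit at the start, with folds of 2.29 and 2.12, and a control summit at the 3′ end, with a fold of 2.67 at both.

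Few member peaks lay at the same place in both lists. An overlap with the other list was found for 29 of 309 MICAL1-FL peaks (9.39%, 6.38 to 13.2%) and for 29 of 352 control peaks (8.24%, 5.59 to 11.6%), against 8.69 and 8.06% at all protein-coding genes. Such overlaps lay at 20 members (11.7%), against 14.8% of all genes. In the chromosome 4 cluster 7.77% of MICAL1-FL peaks and 15.4% of control peaks overlapped.

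Zfp703, a corepressor of the NET family whose gene is 4.13 kb long, had 4 MICAL1-FL and 5 control peaks, and each of the 4 overlapped a control peak. The strongest pair had folds of 3.82 from 9 fragments in MICAL1-FL and 2.93 from 7 in control neurons, with summits 82 bases apart, at chr8:26976523-26977855 and chr8:26977170-26977887. Per 10 kb of the gene and its flanks this gave 2.83 MICAL1-FL and 3.54 control peaks, the highest density of the 171 members in both lists. Zfp781, with 7 peaks in each list, held the pair with the highest summed −log10 p, with folds of 3.44 in MICAL1-FL and 3.43 in control neurons from 8 fragments each. Its peaks were chr10:81909666-81910504 in MICAL1-FL and chr10:81910170-81910504 in control neurons, inside the gene.

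The 2 member peaks with a q at or under 0.05 were both in control neurons. At Zfp626 in cluster 7C, chr7:27800152-27800505 had a fold of 4.20 from 10 fragments and a q of 0.0338. At Zfp978, chr4:147124764-147125252 had a fold of 3.42 from 15 fragments and a q of 0.0442, 31 bases from one end of the gene. A MICAL1-FL peak with a fold of 1.79 from 7 fragments overlapped the Zfp978 one, at chr4:147124413-147124852. Within the array in which MICAL1-FL peaks were the more numerous, the peak with the smallest p was thus a control one.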

How the data were processed

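The submitters' processing notes name, with no roles, MACS 1.4.2, Bowtie 1.3.0, ChIPseeker 1.26.2 and SAMtools 1.9, and neither a threshold nor a build is given in the sources used here. Each deposited list gives a score, which was not used, and the fold (a ratio over background), −log10 p and −log10 q made by the authors' peak caller, with q in the text being the deposited q-value on a linear scale. The build was taken as GRCm38 from the data: 1270 MICAL1-FL and 1170 control summits lay within 250 bp of 17492 gene starts, against 287 and 301 at 20 kb upstream. Gene spans, strand and promoters came from RefSeq GRCm38.p6. Fragments were read from fold as (fragments + 1)/(background + 1) and from p as a Poisson probability, an inference that gave whole numbers within 0.01 for all 661 member peaks. Shares have exact Clopper-Pearson intervals and ratios exact conditional binomial ones, at 95% (scipy 1.17.1). Groups followed the sample titles. The input sample was not analysed here, and protein sequences were not used here. Named genes were the 10 members with most peaks, those with end peaks in both or in 1 list by −log10 p or fold, those with a q at or under 0.05 or with overlapping peaks, and per cluster the richest member and the longest without a peak; others were named after their values were seen. Counting steps were tested on simulated data. Members, lists and clusters were chosen with earlier results of these data known.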

Additional observations from a re-analysis of the deposited data

How the results depend on the processing

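The direction of no ratio reversed under any alternative run. Raising −log10 p to at least 2 left a peak at 49.1% of members in MICAL1-FL and 56.7% in control neurons. At 3 these were 17.0 and 27.5%, and end peaks 5.85 and 7.60%. The ratio of MICAL1-FL to control was then 0.701 (0.473 to 1.03) over all members. It was 4.20 (1.54 to 14.3) in the chromosome 4 cluster and 0.419 (0.255 to 0.673) at the other members. With the strongest 10000 peaks of each list the shares were 14 and 23.4%, end peaks 4.68 and 5.85%, ratios 0.630, 3.25 and 0.420, and shared peaks 5.88% of MICAL1-FL and 3.70% of control peaks. Without flanks 49.7 and 59.6% of members had a peak, and with 10 kb flanks 66.1 and 78.9%. An end window of 500 bp gave 14.6 and 15.8%, and one of 3 kb 40.9 and 48.5%. Chosen after seeing the data, leaving out the chromosome 4 cluster gave a ratio of 0.687 over the members, and peaks at the lowest background alone gave 3.55 in that cluster. The causes of these shifts were not tested, beyond that fewer peaks or other spans were counted. The remaining ratios and shares moved less than their interval, and cluster gaps of 500 kb and 2 Mb put 99 and 115 members in clusters, against 109. Some of the runs changed whether an interval included equal numbers. That of the ratio over members, 0.878 (0.751 to 1.03), includes them. Intervals that exclude them came with members overlapping no other gene, 0.781 (0.655 to 0.929), and at the lowest background, 0.807 (0.654 to 0.994). They also came without Zfp978, 0.825 (0.701 to 0.970), and with the strongest 10000 peaks, 0.630 (0.397 to 0.985). In the run without Zfp978, the peaks it shares with other members were kept. Above the lowest background the ratio outside the chromosome 4 cluster was 0.750 (0.552 to 1.02), which includes equal numbers. No paired analysis was possible because there is 1 library per condition. With few peaks per gene, the interval of the ratio included equal numbers for all clusters but that on chromosome 4 and, of the members with peaks in both lists, for all but Zfp978.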
